A study of Mus musculus with 8 samples.

Results

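The circadian clock genes described here are 10 genes of the core clock and its output, taken by symbol from the deposited table of counts, and all 10 were found among its 25239 genes. They are the activator genes Arntl (also called Bmal1), Clock and Npas2, the repressor genes Per1, Per2, Per3 and Cry1, the nuclear receptor genes Nr1d1 and Nr1d2 (REV-ERB alpha and beta) and the output gene Dbp. The RNA was from livers of adult males, sequenced as 4 knockout and 4 control libraries. The knockout mice are labelled Zfp36l1 fl/fl Alb-Cre+. Both copies of Zfp36l1 thus carry loxP sites, and a Cre recombinase is under the albumin promoter. This aims the deletion at hepatocytes, and whether other liver cells keep the gene was not tested. The control mice are labelled Zf36l1 fl/fl, with the same loxP-flanked alleles and no Cre named, so effects of the transgene and of the deletion cannot be told apart. The protein ZFP36L1 recognises AU-rich stretches of mRNAs through its zinc fingers and speeds up their decay. Each group has libraries numbered 1 to 4. The labels used here give neither the hour at which livers were taken nor the meaning of a number, and they do not say that each library is a separate mouse, and a p-value here refers to the spread among the libraries.

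In the clock of mammalian cells, ARNTL pairs with CLOCK or NPAS2 and switches on the Per, Cry and Nr1d genes and Dbp. PER and CRY proteins then inhibit this pair, and the REV-ERB receptors repress Arntl, which closes another loop. In the liver of a mouse fed at night, Arntl and Npas2 transcripts are known to be high around the change from night to day, Nr1d1 and Dbp are high in turn through the later day, and Per genes follow around nightfall. Arntl and Dbp therefore lie nearly opposite each other in the daily cycle.

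Total counts were 120200618 to 140582588 in the knockout libraries and 104842873 to 132017092 in the control libraries, and a value of 3 counts equals 0.0215 to 0.0277 CPM (counts per 1000000 counts) depending on the library. The targeted gene Zfp36l1 had 76.9, 57.9, 67.2 and 58.3 CPM in knockout and 263, 237, 324 and 212 CPM in control libraries 1 to 4. It averaged 65.1 ± 8.97 CPM in knockout livers and 259 ± 47.9 CPM in control livers (SD, n = 4 each), with no overlap between the groups (log2 fold change −1.99, SE 0.14, adjusted p = 0.000309 by edgeR's quasi-likelihood test). Hepatocyte markers summed to 79672 to 88380 CPM in the knockout and 66219 to 73997 CPM in the control libraries, with 5 of the 6 found in the table. Bulk liver RNA was used, so fewer cells of a type and less RNA per cell cannot be told apart. CPM values include scaling by the trimmed mean of M-values (TMM). Each fold change is the log2 of knockout over control and is given with its standard error (SE).

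None of the 10 clock genes passed the test between knockout and control livers, and the libraries within each group lay far apart. All 10 were tested, edgeR called 0 of them at adjusted p under 0.05, and 1 had an unadjusted p under 0.05, as did 3190 of the 14861 tested genes. DESeq2 and limma also called 0. The background at the adjusted threshold was 5.39% of tested genes. Knockout and control values were without overlap for 0 of the clock genes, against 15.1% of tested genes. Log2 fold changes were below 0 for 7 clock genes and above 0 for 3, with a median of −0.31 beside −0.01 over all tested genes. The 1 gene that differed once same-numbered libraries were compared with each other was Nr1d1, lower in all 4 knockout libraries than in their same-numbered controls.

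Arntl, the gene of the activator that both partners share, had 36.1, 19.8, 29.0 and 15.8 CPM in knockout libraries 1 to 4 and 33.2, 38.8, 40.6 and 11.3 CPM in control libraries 1 to 4. In both groups library 4 was the lowest, and the groups overlapped. The means were 25.2 ± 9.14 CPM in knockout and 31.0 ± 13.5 CPM in control livers (log2 fold change −0.30, SE 0.42, edgeR adjusted p = 0.728), with an approximate 95% interval of −1.33 to 0.73. Npas2, whose protein can take the place of CLOCK, had 16.6, 6.01, 10.8 and 2.69 CPM in knockout and 15.3, 21.01, 17.1 and 1.62 CPM in control libraries 1 to 4. As for Arntl, the lowest value of both groups was that of library 4. The fold change of Npas2 was −0.61 (SE 0.79). Clock, which encodes the partner of ARNTL, varied least of the 10, with 84.3 to 103 CPM in knockout and 67.0 to 113 CPM in control libraries, and library 4 was the lowest in both groups here too (0.06, SE 0.15).

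Dbp, which encodes a transcription factor that binds D-box sequences in output genes, varied most. It had 0.314, 1.39, 0.832 and 6.92 CPM in knockout libraries 1 to 4. The control libraries had 1.21, 0.308, 0.723 and 26.3 CPM. Both groups were highest in library 4, at 22.0 times the lowest library of the knockout and 85.4 times the lowest library of the control group. The raw counts behind these values were 40, 159, 115 and 922 in knockout and 131, 39, 101 and 3210 in control libraries 1 to 4, all far above the limit of 3 counts. The means were 2.36 ± 3.07 CPM in knockout and 7.14 ± 12.8 CPM in control livers. The log2 fold change was −1.59 with an SE of 1.55, and its approximate 95% interval ran from −5.40 to 2.21, so the libraries set no narrow limit on the difference. Without control library 4 the fold change was 1.68, and without knockout library 4 it was −3.08, with edgeR adjusted p of at least 0.415 in every fit that left out 1 library.

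**Figure D1:**
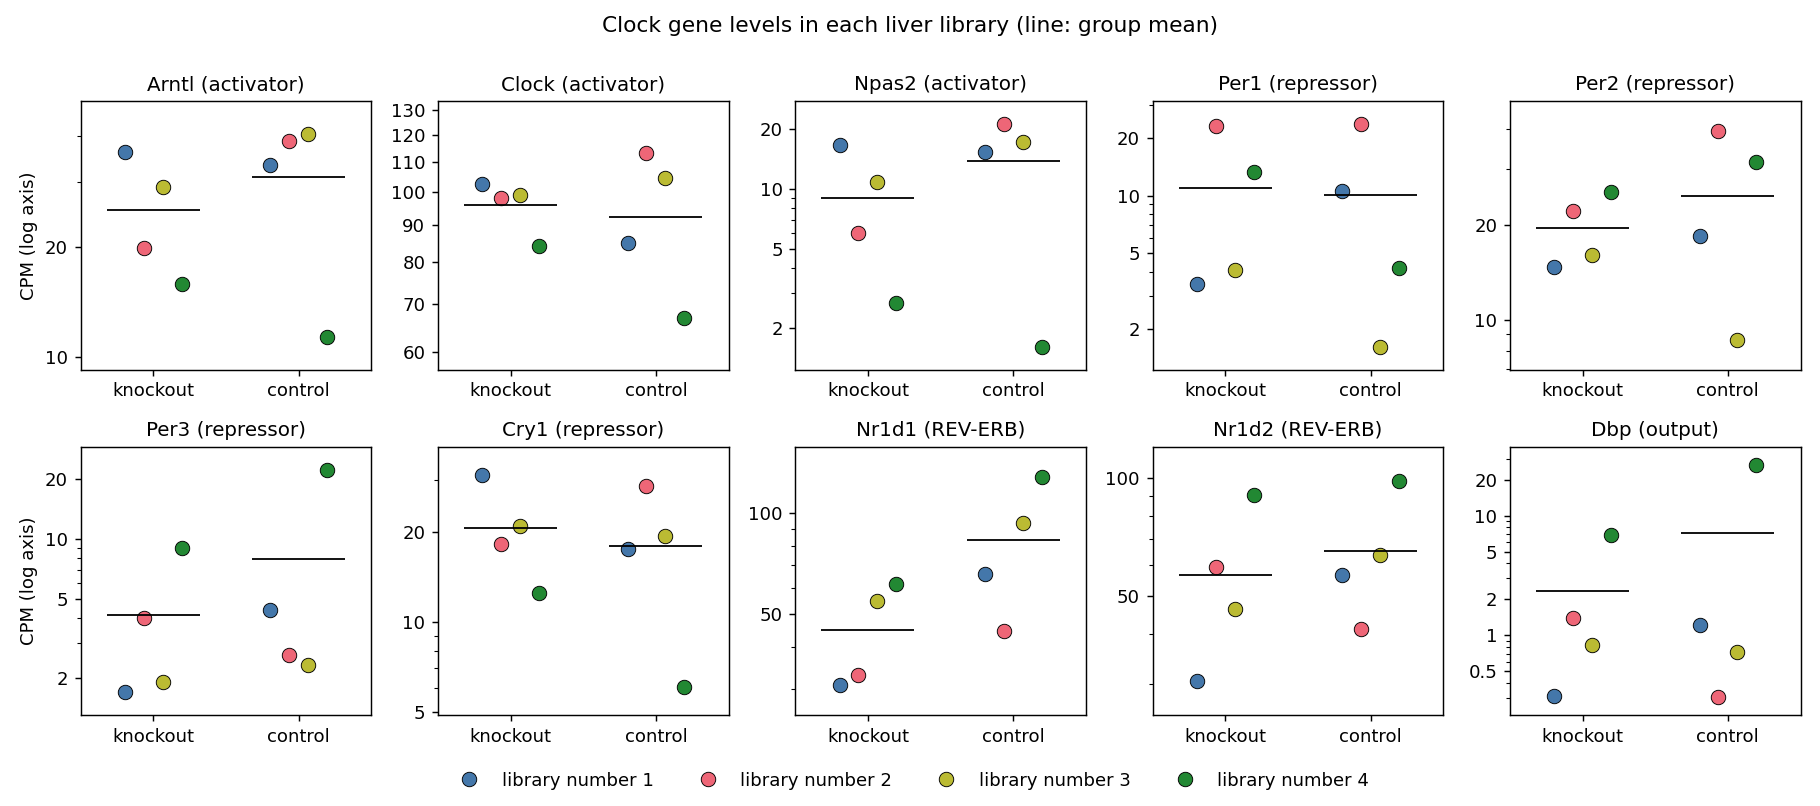
CPM of the 10 clock genes on log axes in each knockout and control library, coloured by library number, with a line at the group mean. Library 4 is the lowest of both groups for Arntl, Clock, Npas2 and Cry1 and the highest of both for Per3, Nr1d1, Nr1d2 and Dbp.

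The number of Dbp counts for every 100 Arntl counts compares these opposite genes within a library and does not depend on scaling between libraries. It was 0.871, 6.99, 2.87 and 43.8 in knockout libraries 1 to 4, and 3.64, 0.795, 1.78 and 232 in control libraries 1 to 4. Library 4 stood far above the others in both groups. Among those others, the order differed between the groups, with library 2 the highest of them in the knockout and the lowest in the control.

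Among the repressor genes, Per3 followed Dbp in library 4. Per3 had 1.69, 4.00, 1.91 and 8.97 CPM in knockout and 4.37, 2.59, 2.31 and 22.4 CPM in control libraries 1 to 4 (−0.93, SE 0.90, edgeR adjusted p = 0.598). Again library 4 was the highest of both groups. Cry1, a gene whose transcript is known to peak later than those of the Per genes, lay at the other end in library 4. It had 31.1, 18.3, 20.96 and 12.5 CPM in knockout and 17.7, 28.7, 19.4 and 6.08 CPM in control libraries 1 to 4, with library 4 the lowest of both groups (0.21, SE 0.46).

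Per1 and Per2, which also respond quickly to hormones and other acute signals, did not have library 4 at an end of both groups. Per1 had 3.45, 23.0, 4.09 and 13.3 CPM in knockout and 10.6, 23.8, 1.61 and 4.19 CPM in control libraries 1 to 4. Library 2 was the highest of both groups and had nearly the same level in each (0.13, SE 0.92). Per2 had 14.7, 22.1, 16.1 and 25.3 CPM in knockout and 18.5, 39.6, 8.63 and 31.5 CPM in control libraries 1 to 4 (−0.33, SE 0.44). Libraries 2 and 4 were above libraries 1 and 3 in both groups.

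The promoters of 9 of the 10 genes were in RefSeq's table for GRCm38.p6, with 13 windows of 250 bases before to 50 bases after a gene start, and Per2 had no entry. They were searched on both strands for the E-box CACGTG that ARNTL and its partners bind, the D-box TTATGNAA that DBP binds and AGGTCA, the core of the element that REV-ERB receptors bind. These strings matched 7.15%, 3.38% and 16.3% of the 32851 promoter windows of the table. Among the clock genes, the E-box was found for Per1 and Cry1, the D-box for Per1 and Per3, and AGGTCA for Arntl, Clock, Per1 and Nr1d2. A gene is named here if any of its windows matched, while the shares above are per window. Arntl and Per1 had 2 windows each and Clock had 3, and their matches were not in every window. The windows of 4 genes that lay high, low or between in library 4 are shown, with matches in capitals, and no 2 matches overlap in them.

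Per3 (chr4:151044616-151044915, minus strand, D-box at −205 and −158 from the gene start): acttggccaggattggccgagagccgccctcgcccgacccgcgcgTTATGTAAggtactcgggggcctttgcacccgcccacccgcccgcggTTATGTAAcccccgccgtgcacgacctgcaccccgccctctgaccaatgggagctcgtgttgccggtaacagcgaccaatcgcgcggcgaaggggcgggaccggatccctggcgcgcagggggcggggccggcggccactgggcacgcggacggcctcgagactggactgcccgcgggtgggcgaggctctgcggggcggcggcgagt

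Per1 (chr11:69098699-69098998, plus strand, E-box at −166, AGGTCA on the opposite strand at −137, D-box at −24): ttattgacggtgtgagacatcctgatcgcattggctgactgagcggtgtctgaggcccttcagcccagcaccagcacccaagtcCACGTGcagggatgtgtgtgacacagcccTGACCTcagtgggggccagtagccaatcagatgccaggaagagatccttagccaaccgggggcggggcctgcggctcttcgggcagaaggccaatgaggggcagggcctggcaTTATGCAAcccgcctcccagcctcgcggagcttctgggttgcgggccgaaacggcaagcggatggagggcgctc

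Cry1 (chr10:85185005-85185304, minus strand, E-box at −60): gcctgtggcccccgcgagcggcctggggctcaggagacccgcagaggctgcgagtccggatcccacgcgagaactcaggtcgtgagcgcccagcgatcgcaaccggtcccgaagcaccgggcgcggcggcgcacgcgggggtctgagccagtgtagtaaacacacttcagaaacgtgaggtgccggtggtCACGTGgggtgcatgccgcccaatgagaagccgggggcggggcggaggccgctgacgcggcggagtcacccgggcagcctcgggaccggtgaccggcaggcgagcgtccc

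Arntl (chr7:113207261-113207560, plus strand, AGGTCA at 32 bases into the gene): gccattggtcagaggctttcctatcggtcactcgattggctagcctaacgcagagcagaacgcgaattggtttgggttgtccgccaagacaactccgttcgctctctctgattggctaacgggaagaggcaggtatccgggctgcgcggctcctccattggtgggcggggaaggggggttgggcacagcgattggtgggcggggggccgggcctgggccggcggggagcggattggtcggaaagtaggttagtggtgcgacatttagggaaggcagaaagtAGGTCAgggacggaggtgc

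Per3 and Per1 both have the D-box in their windows, and Per3 was highest in library 4 of both groups while Per1 was not. Nr1d1 and Nr1d2 were also highest there, with no D-box in their windows. Cry1 and Per1 both have an E-box, and Cry1 was lowest in library 4 of both groups while Per1 was not. Dbp, Nr1d1 and Npas2 had none of the 3 strings in the windows searched, which says nothing of binding elsewhere in these genes. Whether the strings bear on the levels in library 4 was not tested.

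Nr1d1, the REV-ERB alpha gene, had 30.8, 33.0, 54.9 and 61.4 CPM in knockout and 66.1, 44.5, 93.4 and 128 CPM in control libraries 1 to 4. In each group libraries 3 and 4 were above libraries 1 and 2, and the groups overlapped. The means were 45.0 ± 15.4 CPM in knockout and 83.0 ± 36.1 CPM in control livers, and the log2 fold change was −0.88 (SE 0.37, edgeR adjusted p = 0.214). Taken by number, the log2 ratio of the knockout to the control library was −1.10, −0.43, −0.77 and −1.06 for numbers 1 to 4, so Nr1d1 was lower in the knockout in 4 of 4 pairs. With the replicate number as a block in the edgeR fit, Nr1d1 fell by 0.84 on the log2 scale (SE 0.12, adjusted p = 0.00957). That fit called 6.92% of all tested genes, and 1 of the 10 clock genes. The call held in all 7 versions of the fit with the block, which differed in scaling or left out 1 number, with adjusted p from 0.00592 to 0.0432. All 7 keep the pairing by number, so they cannot test it. Those that changed the scaling or left out a number were chosen after the values were seen. Without the block, no fit that left out 1 library called Nr1d1 (edgeR adjusted p of at least 0.124).

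Nr1d2, which encodes the related receptor REV-ERB beta, did not pass in either fit. It had 30.4, 59.5, 46.3 and 90.5 CPM in knockout and 56.5, 41.4, 63.8 and 98.4 CPM in control libraries 1 to 4, and the knockout was lower in 3 of 4 pairs. The fold change was −0.20 (SE 0.37), or −0.24 with the block (SE 0.23, edgeR adjusted p = 0.573). The difference between the 2 receptor genes was not tested.

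The gene Nr1d1 lies on chromosome 11 from 98767932 to 98775333 on the minus strand of mm10, and 263 of its exonic bases overlap Thra, a thyroid hormone receptor gene on the opposite strand. The strand setting of the counting is not given in the sources used here, so reads from these bases cannot be told apart. Thra itself had 15.4 to 21.4 CPM in knockout and 16.2 to 24.6 CPM in control libraries, with a log2 fold change of −0.05 (SE 0.15), or −0.04 with the block. Dbp on chromosome 7, from 45705088 to 45710203, shares 539 exonic bases with Sphk2, a sphingosine kinase gene on the opposite strand. Sphk2 had 53.0 to 77.6 CPM in knockout and 52.6 to 77.1 CPM in control libraries, also in the libraries where Dbp was near 0.3 CPM.

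**Figure D2:**
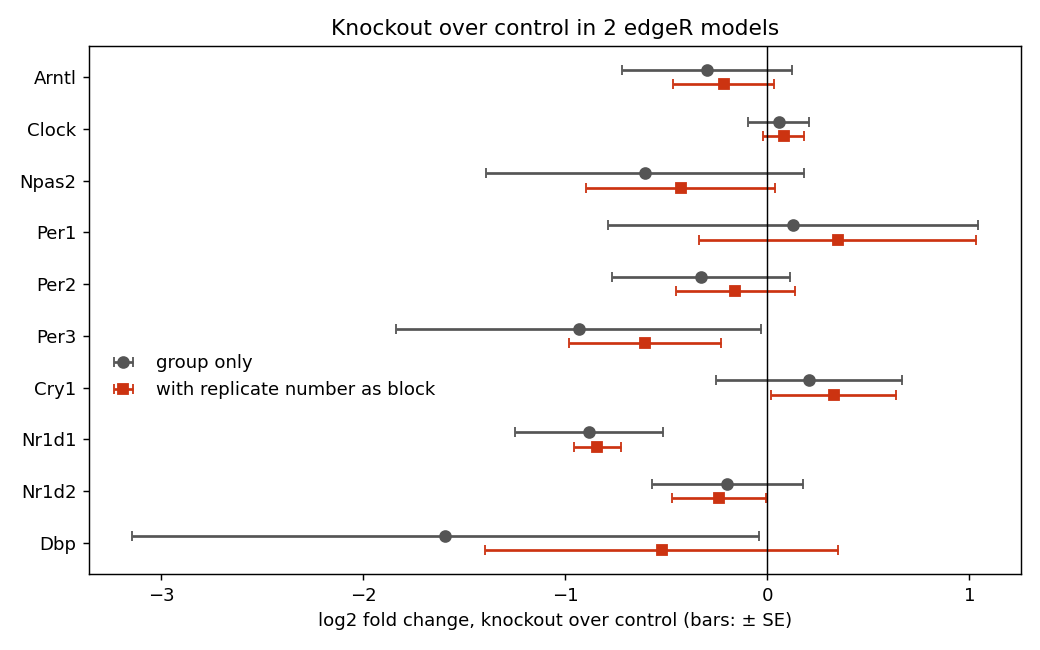
Log2 fold change of knockout over control for the 10 clock genes with bars of 1 SE, from edgeR with group alone (grey circles) and with the replicate number as a block (red squares). Nr1d1 keeps nearly the same value in both fits, −0.88 and −0.84, while its SE is 0.37 without and 0.12 with the block.

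Because ZFP36L1 acts on mRNAs, the longest annotated 3′ untranslated region of each clock gene in GENCODE M21 was searched for UAUUUAU, a core of AU-rich elements. The string was present in 3 of the 10 genes and in 29.6% of 13689 tested genes with such a region. The 3 sites are shown with the string in capitals, since they lie in Clock and in both REV-ERB genes.

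Nr1d1 (chr11:98768105-98768129, minus strand): ccagaaucuUAUUUAUauuguuaua

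Nr1d2 (chr14:18206620-18206644, minus strand): ugagauguuUAUUUAUauguguaua

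Clock (chr5:76215754-76215778, minus strand): uaguuggaaUAUUUAUguaaauggu

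Of these genes, Nr1d1 was lower in the knockout with the block, and Nr1d2 and Clock did not pass in either fit (Clock 0.08 with the block, SE 0.10, edgeR adjusted p = 0.655).

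Levels of different genes were compared as CPM per kilobase of the deposited gene length. Nr1d1 was the most abundant clock gene in both groups, with 16.3 ± 5.56 in knockout and 30.0 ± 13.1 CPM per kilobase in control livers (SD, n = 4 each). Nr1d2 followed with 12.2 ± 5.50 in knockout and 14.01 ± 5.20 in control livers. In knockout livers the order went on with Clock (9.69 ± 0.818), Arntl (8.60 ± 3.12), Cry1 (6.87 ± 2.57), Per2 (3.35 ± 0.861), Per1 (2.33 ± 1.96), Npas2 (2.16 ± 1.45), Dbp (1.41 ± 1.83) and Per3 (0.685 ± 0.560). In control livers it went on with Arntl (10.6 ± 4.60), Clock (9.32 ± 2.08), Cry1 (5.95 ± 3.07), Dbp (4.26 ± 7.63), Per2 (4.20 ± 2.35), Npas2 (3.29 ± 2.02), Per1 (2.13 ± 2.10) and Per3 (1.31 ± 1.60). Neighbours in these orders differed by less than the larger of their SDs, with 3 exceptions. These were Cry1 above Per2 in the knockout, and Nr1d1 above Nr1d2 and Clock above Cry1 in the control group. The place of Dbp in the control group rests on library 4.

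The spread between libraries of a group was large for most clock genes. The SD of log2 CPM, pooled over the groups, was 2.35 for Dbp, 1.51 for Per1, 1.46 for Npas2 and 1.32 for Per3, larger than that of 99.9%, 99.7%, 99.6% and 99.4% of tested genes in the same order. Arntl (0.72), Per2 (0.74) and Cry1 (0.78) exceeded 94.9%, 95.2% and 95.9% of tested genes, and Nr1d1 and Nr1d2 (0.59 each) exceeded 90.1% and 90.5%. Clock, at 0.26, exceeded 62.8%. Genes differ in level and in counting error, so these percentiles describe each gene by itself. For 9 of the 10 genes the SD was larger in the control than in the knockout libraries. The exception was Nr1d2, with 0.66 in knockout and 0.52 in control livers. For Dbp the SD was 1.84 in knockout and 2.77 in control livers, and for Per2 it was 0.37 in knockout and 0.98 in control livers. This difference in spread was not tested.

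Libraries with the same number were then compared across the groups, the number being the only mark that the labels share between them. Whether livers of one number were taken at one time of day was not tested. After subtraction of the group mean, library 4 of the knockout and library 4 of the control deviated to the same side for 9 of the 10 clock genes, with Per1 the exception. Library 4 was the lowest of both groups, or the highest of both, for 8 of the 10, against 18.9% of tested genes, a count made after the values were seen. Libraries 3 shared a side for 9 genes, libraries 1 for 8 and libraries 2 for 4, where 53.4% to 63.4% of tested genes did so, depending on the number. Deviations from a group mean cancel out within the group, so an extreme library 4 moves the others to the opposite side. The counts for numbers 1, 2 and 3 are therefore not separate from that for number 4. In number 2 the groups parted for Dbp, at 1.39 CPM in the knockout and 0.308 CPM in the control library, and for Arntl, at 19.8 CPM in the knockout and 38.8 CPM in the control library. The share of the within-group variance that lay between numbers was above the median of tested genes (61.6%) for all 10, from 73.9% for Clock to 93.0% for Nr1d1.

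**Figure D3:**
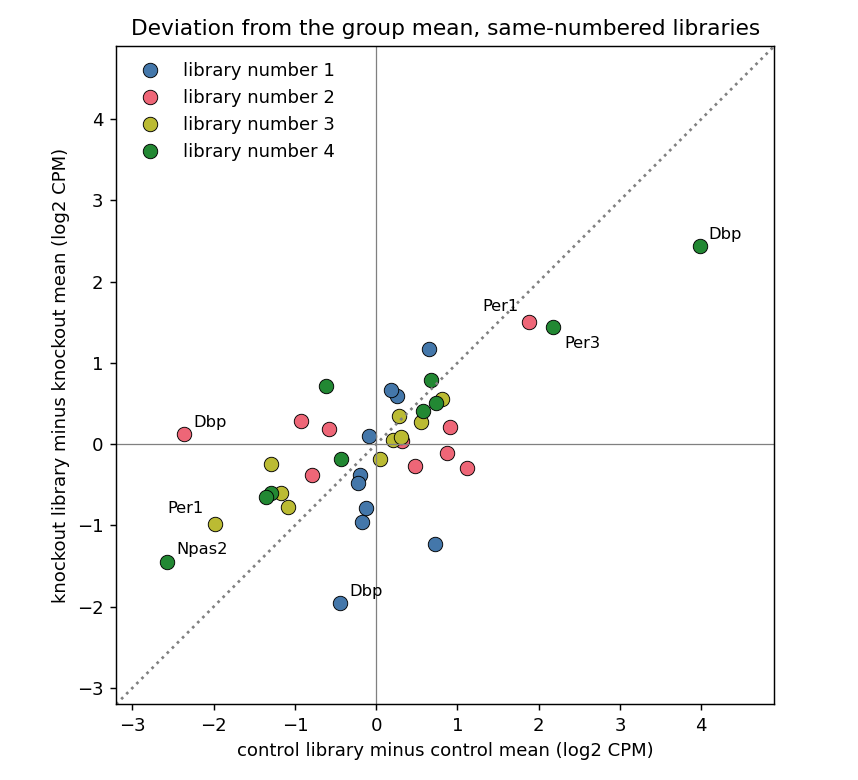
Deviation of each clock gene from its group mean in log2 CPM, with the knockout library on the vertical axis against the same-numbered control library on the horizontal axis; each point is 1 gene in 1 pair and the dotted line marks equal deviations. Dbp and Per3 of number 4 lie at the upper right and Npas2 of number 4 at the lower left, while Dbp of number 2 is low in the control only.

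Whether the level of a gene differed by number was tested with edgeR in a model of group and number. At adjusted p under 0.05 it called 70 of the 14861 tested genes (0.471%) and 0 of the 10 clock genes, of which 6 had an unadjusted p under 0.05, as did 1947 of all tested genes. Nr1d1 came closest (adjusted p = 0.0557), followed by Per3 (adjusted p = 0.192), and Dbp had adjusted p = 0.321. Without number 1, Nr1d1 passed (edgeR adjusted p = 0.0473). Without number 2, Nr1d1 and Per3 passed by edgeR (adjusted p = 0.0388 and 0.0165), and without number 4 none of the 10 did, with adjusted p = 0.998 for Dbp. A root mean square difference over the 10 genes gave the control library nearest to each knockout library. Knockout libraries 3 and 4 were nearest to their own numbers (0.53 and 0.84 on the log2 scale). Knockout library 1 was nearest to control library 3 (0.60, against 0.89 for its own number) and knockout library 2 to control library 1 (0.52, against 1.12). Over all tested genes each knockout library correlated best with its own number. A correlation and a root mean square difference are unlike measures, so the clock genes cannot be set against the whole table by them.

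Of 21 other genes of the clock, 20 were tested and Rorb was not. Among the 20, edgeR called 1 lower and 0 higher in the knockout, a share near the 5.39% of all tested genes (median log2 fold change −0.10). The gene that fell was Fbxl21, which encodes an F-box protein that acts on cryptochromes. Fbxl21 had 2.59, 2.48, 2.92 and 2.95 CPM in knockout and 4.16, 4.51, 3.75 and 3.42 CPM in control libraries 1 to 4 (−0.53, SE 0.13, edgeR adjusted p = 0.0457). The groups did not overlap, but the call was lost with the block (adjusted p = 0.0692) and in 7 of the 8 fits that left out 1 library. Ciart, a repressor gene of the clock, had 0.220, 0.262, 0.195 and 0.255 CPM in knockout and 0.305, 0.364, 0.279 and 1.66 CPM in control libraries 1 to 4. Its groups did not overlap either, but it did not pass (edgeR adjusted p = 0.182). The rise of library 4 seen for Dbp in both groups was seen for Ciart in the control alone. In all, 4 of the 20 genes were without overlap, against 15.1% of tested genes. The others were Nono, lower in the knockout, and Fbxw11, higher, and neither passed.

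By number, 1 of the 20 other clock genes differed, against 0.471% of all tested genes. Bhlhe41, which encodes a repressor of clock-driven genes, had 0.495, 0.602, 0.615 and 4.16 CPM in knockout and 0.868, 0.419, 0.358 and 3.45 CPM in control libraries 1 to 4 (edgeR adjusted p = 0.0188 by number). Library 4 was the highest of both groups, and without number 4 the adjusted p was 0.767. Tef, a relative of Dbp, had 37.9, 56.5, 41.8 and 85.4 CPM in knockout and 55.9, 51.3, 52.1 and 139 CPM in control libraries 1 to 4, also highest in library 4 of both groups, with edgeR adjusted p = 0.0697 by number. Hlf, another gene of that family, stayed between 44.0 and 52.3 CPM in knockout and between 50.3 and 51.4 CPM in control libraries. Nfil3, whose protein competes with DBP for D-boxes, had 66.8, 52.6, 58.1 and 41.7 CPM in knockout and 53.1, 48.7, 54.7 and 30.5 CPM in control libraries 1 to 4. Library 4 was the lowest of both groups (edgeR adjusted p = 0.102 by number). Tef, Hlf, Nfil3 and Ciart were named after their values were seen.

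**Figure D4:**
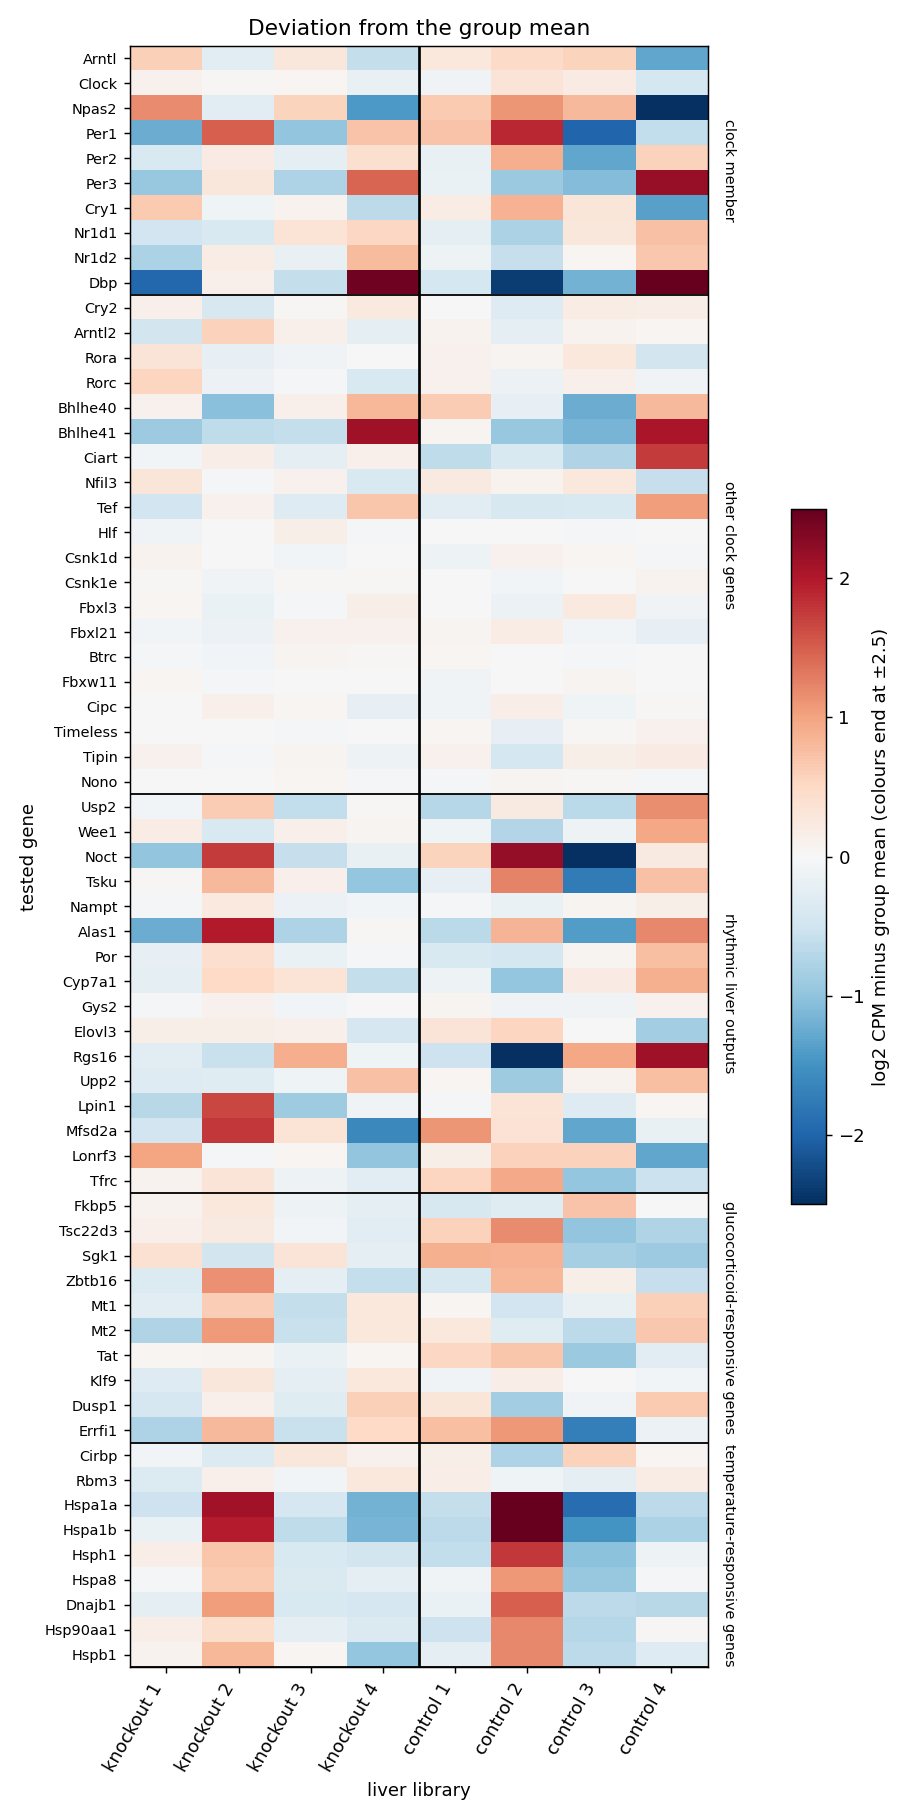
Deviation from the group mean in log2 CPM for tested genes of 5 lists (rows) in knockout libraries 1 to 4 and control libraries 1 to 4 (columns), with colours ending at ±2.5. Library 4 of both groups is low for Arntl, Npas2 and Cry1 and high for Per3, Dbp and Bhlhe41, and library 2 of both groups is high for Per1, Hspa1a, Hspa1b and Dnajb1.

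Of 16 liver genes known for daily rhythms, 2 rose and 0 fell in the knockout, where 5.39% of all tested genes were called (521 higher and 280 lower). The count was not tested against that background. Nampt, which encodes the rate-limiting enzyme of NAD salvage, averaged 76.4 ± 9.66 CPM in knockout and 54.8 ± 5.21 CPM in control livers (0.48, SE 0.10, edgeR adjusted p = 0.0292). Gys2, the liver glycogen synthase gene, averaged 176 ± 8.67 CPM in knockout and 141 ± 9.93 CPM in control livers (0.31, SE 0.07, edgeR adjusted p = 0.0357). For both genes the groups did not overlap, and neither passed the test by number (edgeR adjusted p = 0.935 for Nampt and 0.861 for Gys2). Leaving out 1 library ended the call of Nampt in 5 of 8 fits and that of Gys2 in 6, and Gys2 did not pass under total counts alone (adjusted p = 0.0781). Elovl3, a fatty acid elongase gene, had 1052, 1054, 1050 and 716 CPM in knockout and 731, 849, 582 and 317 CPM in control libraries 1 to 4. It rose in the fit with the block (0.72, SE 0.14, edgeR adjusted p = 0.0265) and did not pass without it (adjusted p = 0.227).

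Genes that respond to glucocorticoids and to temperature were followed because Per1 and Per2 are also driven by such signals. Of 10 glucocorticoid-responsive genes edgeR called 0 between the groups, with 1 at an unadjusted p under 0.05 1 called by DESeq2 and 0 by limma, and 1 differed by number (0.471% of all tested genes). That gene, Zbtb16, had 14.1, 39.4, 15.2 and 11.8 CPM in knockout and 12.4, 29.1, 18.3 and 11.04 CPM in control libraries 1 to 4 (edgeR adjusted p = 0.0157 by number). Library 2 was the highest of both groups, as for Per1. Over all tested genes, library 2 was the highest of both groups, or the lowest of both, for 25.4%. Of 9 temperature-responsive genes 0 were called between the groups (0 also at an unadjusted p under 0.05 and 0 by DESeq2 and limma) and 1 differed by number, beside the same 0.471%. In the edgeR test by number, 6 of the 9 had an unadjusted p under 0.05, as did 1947 of the 14861 tested genes. Dnajb1, a co-chaperone gene, had 18.6, 45.1, 16.9 and 16.4 CPM in knockout and 22.8, 72.2, 16.2 and 15.9 CPM in control libraries 1 to 4 (edgeR adjusted p = 0.0128 by number). The chaperone gene Hspa1b, named after its values were seen, had 16.1, 69.8, 11.6 and 8.004 CPM in knockout and 13.8, 167, 7.699 and 12.6 CPM in control libraries 1 to 4, again with library 2 the highest of both. In the rest of this list, library 2 was also the highest of both groups for Hspa1a, Hsph1, Hspa8, Hsp90aa1 and Hspb1. It was the lowest of both for Cirbp and at neither end for Rbm3. Hspa1b did not pass by number (edgeR adjusted p = 0.157), nor did Per1 (adjusted p = 0.482). The part of temperature or hormones in the level of Per1 was not tested.

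The genes whose profiles over the 8 libraries were nearest to Arntl, by the root mean square difference of centred log2 CPM among 11396 genes, were Atoh8 (0.18), Chka (0.22), Lonrf3 (0.23), Clpx (0.30) and Grk5 (0.32). Atoh8, a transcription factor gene, had 27.0, 18.1, 22.0 and 16.6 CPM in knockout and 30.2, 34.2, 33.7 and 12.3 CPM in control libraries 1 to 4, the same order of libraries within each group as Arntl except for control libraries 2 and 3. The nearest profiles to Dbp were those of Saa1 (0.96), Bhlhe41 (1.03), Saa2 (1.03), Saa3 (1.08) and Smpd3 (1.30). This measure is not scaled to the spread of a gene, and the pooled SD was 2.35 for Dbp and 0.72 for Arntl. The differences from Dbp and from Arntl therefore cannot be compared as closeness. Tef, which is not among these, had the same order of libraries as Dbp within each group. Saa1 shared with Dbp the highest library, 4, but not the order of the others.

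Saa1, a gene of the acute phase response, had 14.1, 11.6, 7.79 and 278 CPM in knockout and 27.0, 17.2, 10.5 and 457 CPM in control libraries 1 to 4. Both groups were highest in library 4 by a wide margin, and Saa1 differed by number (edgeR adjusted p = 2.95e-06). Saa3 had 1.34, 1.07, 0.774 and 9.82 CPM in knockout and 2.10, 1.84, 1.22 and 14.4 CPM in control libraries 1 to 4 (edgeR adjusted p = 0.000201 by number). With the block, Saa1 and Saa3 were lower in the knockout (log2 −0.67 and −0.65, edgeR adjusted p = 0.00868 and 0.0194), and neither passed without it. Saa2 did not pass with the block (log2 −0.30, edgeR adjusted p = 0.532), and its knockout library was lower in 2 of 4 pairs. The Saa genes are close relatives, so counting may have split their reads. These genes were found by their likeness to Dbp, so their height in library 4 is a description and no separate result.

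Markers of other liver cells were read in the same libraries. Neutrophil markers summed to 40.2, 0.166, 0.130 and 16.6 CPM in knockout and 2.65, 0.205, 0.150 and 3.77 CPM in control libraries 1 to 4, so libraries 1 and 4 were above libraries 2 and 3 in both groups. All markers of these other cells were in the table: 4 for neutrophils, 3 for erythrocytes and 5 for each other type. Kupffer cell markers summed to 193, 88.8, 118 and 246 CPM in knockout and 155, 111, 152 and 153 CPM in control libraries 1 to 4. Endothelial markers summed to 134 to 189 CPM in knockout and 131 to 186 CPM in control libraries, and stellate cell markers to 157 to 231 CPM in knockout and 154 to 225 CPM in control libraries. Cholangiocyte markers summed to 30.2 to 44.7 CPM in knockout and 42.0 to 56.9 CPM in control libraries, and of these genes Sox9 fell (log2 fold change −1.18, SE 0.23, edgeR adjusted p = 0.0242). Lymphocyte markers summed to 1.19 to 1.86 CPM in knockout and 0.632 to 1.65 CPM in control libraries, and erythrocyte markers to 79.3 to 121 CPM in knockout and 98.2 to 134 CPM in control libraries. No marker was at 0 in all libraries, and the part of these cells in the clock genes' levels was not tested.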

How the data were processed

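Per the labels, liver RNA was obtained with an illustra QuickPrep kit and made into libraries with a NEBNext Ultra II kit. The authors deposited raw counts per gene symbol for 8 libraries, with gene lengths in bases beside them per the file headers. The build was mm10 per the submitters' processing notes; the sources used here do not give aligner, counter, annotation or strand setting. Of counts from 1 to 20, 67.4% to 70.8% per library were even, so fits on counts divided by 2 were an alternative.

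Columns were matched to samples by the names in the sample descriptions. Genes kept by filterByExpr (14861 of 25239) were TMM-scaled and tested with edgeR 4.0.16 (glmQLFit, robust; 6 residual degrees of freedom) with adjustment after Benjamini and Hochberg, called under 0.05. SE is the absolute log2 fold change over the square root of F, and 95% intervals from it are approximate. A second edgeR model held group and replicate number, with 3 residual degrees of freedom and fewer where a number was left out. It gave the test by number and the fit with the block. Log2 CPM used a prior count of 2. DESeq2 1.42.0 and limma 3.58.1 were alternatives, and scripts were tested on simulated data. Floors of 3 counts cover counting error only. Sequences came from RefSeq (GRCm38.p6) and GENCODE M21 (GRCm38, the assembly of mm10).

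Deviations of same-numbered libraries had correlations of 0.17, 0.39, 0.31 and 0.40 across tested genes after group means were subtracted. Knockout library 1 and control library 4 had a correlation of 0.13. The main fit used group alone. Numbers were compared as pairs and used as a block beside it, though no label says what they mark.

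Named genes were all clock genes, list members past a threshold and, for Arntl and Dbp, the 5 nearest profiles with a mean of at least 1 CPM. Clock genes and lists were chosen with earlier results of these data known.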

Additional observations from a re-analysis of the deposited data

Results flagged for a closer look

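Within a group of 4 libraries, 1 library stood apart from the others by Dixon's criterion in 16 of 52 groups of values checked. Chance flags about 1 in 20 groups, but that rate applies to no count here that includes genes named because they differed by number or had profiles near those of Arntl or Dbp. Only 3 of the 16 were values of the clock genes. Of the 16, 13 were library 4 and 3 were library 2.

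Among the clock genes, library 4 was far above the others for Dbp in the knockout (6.92 CPM) and in the control (26.3 CPM), and for Per3 in the control (22.4 CPM). Among other clock genes it was so for Bhlhe41 in the knockout (4.16 CPM) and in the control (3.45 CPM).

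Library 4 also stood apart for genes with profiles near those of Dbp or Arntl. Saa1 reached 277.7 CPM there in the knockout and 457 CPM in the control, Saa2 204 CPM in the knockout and 348 CPM in the control, and Saa3 9.82 CPM in the knockout and 14.4 CPM in the control. Smpd3 reached 11.7 CPM in the knockout, and Grk5 was low in the control (4.78 CPM).

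Library 2 was far above the others for Dnajb1 in the knockout (45.1 CPM) and in the control (72.2 CPM), and for Zbtb16 in the knockout (39.4 CPM).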

How the results depend on the processing

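The 10 clock genes gave 0 calls between knockout and control livers in every fit without the block, and 1, Nr1d1, with the replicate block (also with RLE size factors or total counts beside it, and without each number in turn). The fold change of Nr1d1 stayed below 0 in all 26 alternatives, from −1.08 to −0.59. The sign of each of the other clock genes differed in at least 1.

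Over all genes edgeR called 801 (521 higher, 280 lower), and 1028 with the replicate block. Total counts alone gave 1730 (392 higher, 1338 lower) and shifted the median log2 fold change by −0.11; with the block they gave 2191. DESeq2 gave 1668 and limma-voom 1434. Leaving out 1 library gave 211 (without knockout library 3) to 967, leaving out a number 47 to 443, and with the block 263 (without number 1), 339 (2), 521 (3) and 834 (4).

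Of other clock genes, 1 was called: 2 under total counts, DESeq2 and limma-voom, 0 without a filter, 0 with the replicate block (also with RLE), 4 with the block and total counts, and 0 to 1 with a library or number left out. Rhythmic outputs gave 2 calls, 1 under total counts with or without the block, and 0 to 3 in the fits that left out a library or number. DESeq2 called 1 glucocorticoid-responsive gene, and the block with total counts 1 temperature-responsive gene, against 0.

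By number, edgeR called 70 genes: 119 without a filter, 44 with a stricter one, and 25 to 86 with a number left out. Clock genes called by number were 1 without a filter (against 0) and 0 to 2 with a number left out. Other clock genes called by number were 2 without a filter, 0 with a stricter one (against 1), and 0 to 2 with a number left out.

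Over 26 genes named here, 670 alternative values kept their side of the threshold in 603 cases, lost it in 47, gained it in 20 and reversed in 0. The cause of these changes was not tested. For the comparison of knockout with control, the fits that left out a number, and those that joined the block to a scaling or to a left-out number, were chosen after seeing the data. Depth did not limit the clock genes, whose lowest count was 39. With 4 libraries a group, the spread between libraries sets the intervals.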
